A study of Ovis aries with 9 samples.

Results

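The comparison was between verteporfin-treated (VP) and untreated (Con) rumen epithelial (RE) cells, and covered the genes with at least 1 CPM (the count scaled to its column total) in all 3 wells of either group. These were 11275 of the 25962 Ensembl identifiers in the table, and the closest levels on either side of the minimum, taken in the lowest well of the better group, were 1.009 and 0.9767 CPM. RNA was sequenced from primary wild-type RE cells of newborn Hu lambs, with 3 wells per group, and the 6 libraries were part of a series of 9. The VP wells received 5 μM verteporfin for 24 h, while the Con wells were labelled as receiving no treatment. The study dissolved verteporfin in DMSO, and the labels name no DMSO for Con, so verteporfin and its solvent cannot be told apart. All wells held cultured cells in the same medium with 2% FBS and an additive that included epidermal growth factor, hydrocortisone and insulin. The replicates were wells, with no animal stated for each, so the p-values measure the spread between wells and not between lambs.

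YAP1 and TAZ are co-activators that enter the nucleus and act with TEAD proteins, which bind DNA, to switch on genes for growth, adhesion and the extracellular matrix. The kinases of the Hippo pathway hold them in the cytoplasm. Verteporfin is a porphyrin that disrupts the partnership of YAP1/TAZ with TEAD, and the study used it as an inhibitor in the stratified squamous epithelium of the rumen, whose basal layer divides and whose upper layers differentiate. The comparison asks how the transcriptome of these cells changes under the inhibitor. The table lists genes by identifier alone, and 0 identifiers could be paired with a symbol, so YAP1/TAZ targets, matrix genes, markers of RE cells and markers of other cell types were not analysed here, and the labelled cell type was not checked against its markers. In these bulk samples, fewer cells of a type and less RNA per cell cannot be told apart.

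The libraries were of nearly even depth, with totals of 14458606 to 15576179 counts in Con and 14861503 to 15814380 in VP. Pairs of replicate wells differed beyond counting noise (chi-square per degree of freedom, 2.87 to 10.6), and each well was counted as a sample. Distances between wells, in log2 CPM over the tested genes, ran from 27.6 to 35.0 within Con, from 33.6 to 40.1 within VP and from 65.7 to 89.1 between the groups. Every pair of wells from different groups was thus farther apart than any pair from the same group. The mean distance between groups exceeded that within groups by 42.2, and none of the other ways to split the 6 wells gave more than 0.296 (exact permutation test over 10 splits, one-sided, p = 0.1, as low as 3 against 3 wells can give; p = 0.25, again the lowest possible, with swaps only within same-numbered wells). VP well 3 lay nearest to Con, at 65.7, 66.7 and 73.1 from the 3 Con wells, whereas VP wells 1 and 2 lay at 75.1 to 89.1. The first principal component of the 6 wells held 78.4% of the variance and set every VP well (25.4 to 42.1) apart from every Con well (-43.1 to -30.9).

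Changes of more than 2-fold in VP were nearly all decreases, while smaller changes went in both directions. Differentially expressed genes (DEGs) had a false discovery rate (FDR) under 0.05 and changed more than 2-fold, which is over 1 on the log2 scale, and 1163 DEGs (10.3% of the tested genes) were lower in VP while 37 (0.328%) were higher. Genes were tested by quasi-likelihood in edgeR on TMM-normalized counts, and p-values were adjusted after Benjamini and Hochberg over all 11275 genes. Without regard to size, 53.8% of the tested genes passed FDR < 0.05, of which 3323 genes (29.5%) were lower and 2745 (24.3%) higher, so the numbers were far less uneven than among the DEGs. At FDR < 0.05 and a log2 fold change of up to 0.5 in size, 1974 genes were higher and 800 lower. Between 0.5 and 1, 734 were higher and 1360 lower. Between 1 and 2, 35 were higher and 958 lower. Between 2 and 3, 0 were higher and 166 lower, and beyond 3, 2 were higher and 39 lower. With TMM, the increases thus outnumbered the decreases in the smallest class of change and in no larger one. These size classes were not counted under another scaling. Over all tested genes the log2 fold change had a median of -0.04, with its 5th percentile at -1.43 and its 95th at 0.571.

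**Figure D1:**
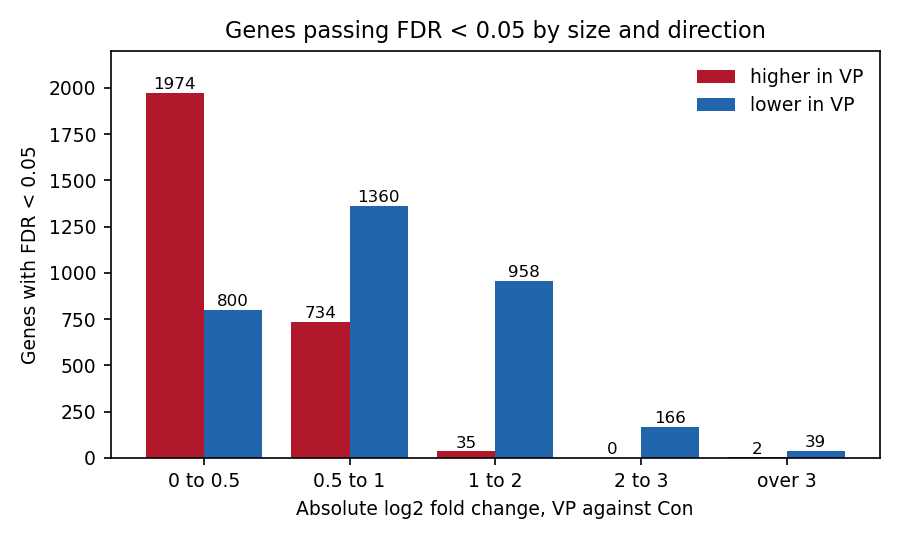
Number of genes with FDR < 0.05 (y axis) in classes of absolute log2 fold change of VP against Con (x axis), drawn as bars for genes higher (red) and lower (blue) in VP. The red bar is the taller one from 0 to 0.5 (1974 against 800 genes), and the blue bar is the taller one in every class above that.

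Of the 1163 DEGs that were lower in VP, 1152 had all VP wells below all Con wells, and 34 of the 37 that were higher had all VP wells above all Con wells. Over all tested genes, called or not, the groups did not overlap in 60.3%, with VP below Con in 31.7% and above it in 28.6%. Of the other normalizations, DESeq2-type size factors gave 46 higher and 1103 lower genes, and no scaling beyond library size gave 34 and 1277. These left the balance of the DEGs much as it was. Cyclic loess, which removes any trend of fold change with level, was run with another test (limma-trend). It gave 154 higher and 851 lower genes, so that 15.3% of the DEGs rose instead of 3.08%. The 37 higher DEGs were few and depended on the setting, since leaving out Con well 1 gave 64 and leaving out VP well 3 gave 62. With the GC percentage of each library's reads as a covariate, 37 genes were again higher, but only 8 of them were the same. That covariate left 797 genes lower, which included 682 of the 1163 lower DEGs, so the others of the 1163 lost their call. Whether read GC content differed between the groups is not given here. A covariate that differs between them would take up part of their difference, so the lost calls cannot be assigned to read GC content. Its part in these results was not tested otherwise.

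Measured against the pooled Con wells, the size of the difference varied between VP wells. Relative to the mean of the 3 Con wells, the DEGs that were lower in VP had a median log2 difference of -1.48 in VP well 1, -1.51 in VP well 2 and -1.24 in VP well 3. More than 2-fold lower in a single well were 1057, 1066 and 836 of these genes, respectively. A Con well set against the mean of the other Con wells gave medians of -0.0765, -0.0602 and 0.163 over the same genes, of which 10, 2 and 0 were more than 2-fold lower. These genes were chosen from the same wells for being lower in VP, so a gap between VP and Con wells was fixed in advance. Among the VP wells, well 3 was the mildest on these genes against the mean of the 3 Con wells. Over all tested genes, same-numbered Con and VP wells lay 75.1, 79.1 and 73.1 apart for wells 1, 2 and 3. A smaller response in VP well 3 and a shift shared with Con well 3 were not told apart. Without selecting on the test, 12.2%, 12.8% and 8.4% of all tested genes were more than 2-fold lower than Con in VP wells 1, 2 and 3, and 0.55%, 0.639% and 0.488% were more than 2-fold higher. Among the Con wells these shares were at most 0.275% lower and 0.284% higher. The 37 DEGs that were higher in VP had medians of 1.22, 1.29 and 1.13 in VP wells 1, 2 and 3, and of 0.303, 0.0453 and -0.165 in Con wells 1, 2 and 3. They too were chosen from these wells, and 22 passed the CPM minimum through VP alone, so the gap between the groups was fixed in advance. Con well 1 was thus the Con well that lay nearest to VP on these genes.

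DEGs that were lower in VP were found at every level of expression. The tested genes were divided by their mean level over both groups into 4 classes, which met at 7.54, 22.6 and 60.7 CPM. From the lowest to the highest class, 529, 342, 160 and 132 genes were DEGs lower in VP, and 29, 4, 1 and 3 were DEGs higher in VP. The median SE (standard error) of log2 fold changes was 0.271 in the lowest class and 0.0721 in the highest, so the highest class resolved much smaller changes. By the level in Con alone, which also entered the fold change, the share of genes that were DEGs lower in VP was 14.5% from 1 to 10 CPM, 8.98% from 10 to 100 CPM, and 7.69% from 100 to 1000 CPM, beside 10.3% of all tested genes. At 1000 CPM or more it was 15 of 136 genes, close to that background. The median log2 fold change of these DEGs was -1.41 from 1 to 10 CPM and -2.13 at 1000 CPM or more. Of the 37 genes under 1 CPM in Con, 16 were DEGs higher in VP and 0 lower. A gene so low in Con entered the test through its level in VP, so the 0 lower followed from the filter and the 16 higher were favoured by it. Passing the CPM minimum in one group alone favoured a difference, and 232 of the lower and 22 of the higher DEGs passed it in one group only, among 460 genes that passed only in Con and 112 that passed only in VP. Among the 10703 genes that passed in both groups, 931 were lower and 15 higher, and of these 15, 7 were in the lowest class and 8 above it.

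**Figure D2:**
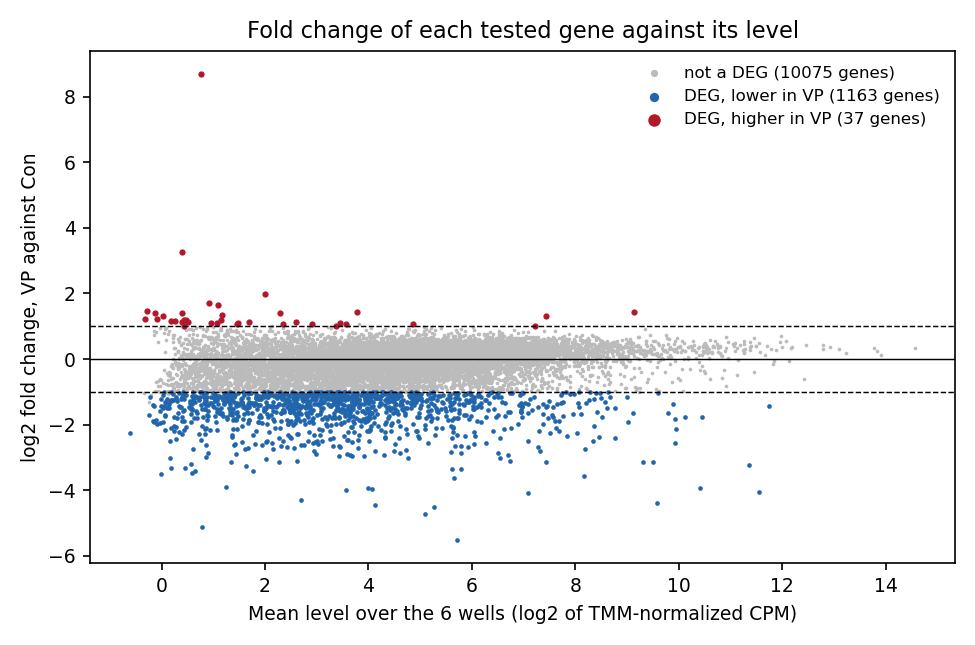
Log2 fold change of VP against Con (y axis) for each of the 11275 tested genes against the log2 of its mean TMM-normalized CPM over the 6 wells (x axis), with dashed lines at a 2-fold change. The 1163 DEGs that were lower in VP (blue) spread over the whole range of levels, and of the 37 that were higher (red), 22 passed the CPM minimum through VP alone, which places them at low levels.

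The fold changes of all tested genes, DEGs or not, shifted with the level of expression. The median log2 fold change was -0.32 in the lowest class, -0.163 and 0.0361 in the middle classes and 0.171 in the highest. Each VP well followed this order. Against the Con mean, VP wells 1, 2 and 3 had medians of -0.346, -0.362 and -0.229 in the lowest class. In the highest class the same wells had 0.179, 0.191 and 0.152. Con wells set against the other Con wells ranged from -0.0431 to 0.0951 in the lowest class and from -0.0874 to 0.0643 in the highest. The VP wells thus lay outside the range of the Con wells at both ends, and Con well 3 had the opposite slope. The trend depends on the scale, since cyclic loess removes it by design and turned the lowest class to 0.00922, with 0.051 in the highest. The median of all tested genes moved by less than 0.1 under any scaling tried.

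**Figure D3:**
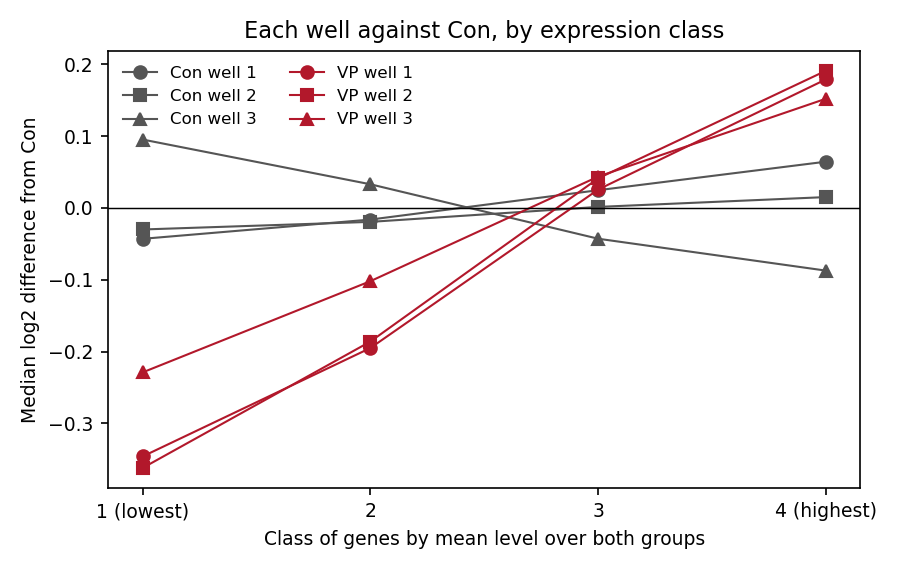
Median log2 difference from Con (y axis) in 4 classes of genes by mean level (x axis), with 1 line for each well; VP wells (red) are set against the mean of the 3 Con wells and Con wells (grey) against the mean of the other 2. The red lines rise from between -0.362 and -0.229 to between 0.152 and 0.191, and the grey lines stay between -0.0874 and 0.0951.

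The counts of VP wells were spread over fewer genes. The 10 most abundant genes of each well took 10.9%, 10.7% and 10.6% of its counts in Con wells 1, 2 and 3, and 12.5%, 12.5% and 12.3% in VP wells 1, 2 and 3. The top 100 genes took 31.0% ± 0.292 in Con and 33.8% ± 0.34 in VP, and the top 1000 took 64.9% ± 0.387 and 67.2% ± 0.485 (SD, n = 3). At an equal depth of 14458606 counts, 13857, 13834 and 13861 genes had a count in Con wells 1, 2 and 3, and 13556, 13504 and 13624 in the VP wells. On average the number of detected genes fell by 289 in VP. For each of these 4 measures the groups did not overlap, and each gave p = 0.1 in an exact permutation test over the 6 wells (two-sided), as low as this design can give, and p = 0.25 with swaps only within same-numbered wells. The lists of the 10 most abundant genes of the 6 wells shared 9 genes and held 12 in all. Of these 12, 9 were higher and 2 lower in VP at FDR < 0.05 (edgeR), beside 24.3% and 29.5% of all tested genes, and their log2 fold changes ranged from -4.06 to 0.43. A gene outside the shared 9 could enter by being high in 1 group only, which favoured a difference. The shares of all tested genes are also an unlike background. In the highest expression class the median log2 fold change was 0.171 and the median SE 0.0721, so small increases were called more readily there.

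Loss of expression was rarely complete. Only 8 genes had at least 3 counts in every Con well and 0 in every VP well, with a median of 6.17 counts per Con well, and 1 gene showed the reverse. That gene had a mean of 51.3 counts per VP well, was a DEG and was at least 16.8-fold higher in VP against a floor of 3 counts per Con well. None of the 8 passed the CPM minimum, so none of them was tested. At a minimum of 10 counts per well, 1 gene was counted in Con only. The DEGs that were lower in VP had a median level of 14.7 CPM in Con and 5.33 CPM in VP, and together they took 9.01% ± 0.12 of the counts in Con and 2.48% ± 0.114 in VP (SD, n = 3). The genes chosen for having fallen had to take a smaller share, so these values describe the size of the loss and are not a test of it. Counted in CPM, the 10 genes with the greatest loss accounted for 36.0% of the loss of these DEGs and the top 100 for 74.0%. Abundant genes weigh most in such a count, and the concentration of these DEGs' counts in Con was not set beside it.

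The DEG with the greatest loss of CPM, picked out after its values were seen, had 93210, 87494 and 79903 counts in Con wells 1, 2 and 3. It had 5188, 4801 and 5377 counts in VP wells 1, 2 and 3. Its rank among the genes of a well went from 10 or 11 in Con to between 448 and 475 in VP. The log2 fold change was -4.06 (SE 0.0635), or 16.7-fold lower in VP (edgeR, adjusted p = 1.04e-17). The spread between wells was small beside this difference, at 5650 ± 340 CPM in Con and 339 ± 6.02 CPM in VP (SD, n = 3).

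The identifiers named here were the 2 in each direction with the largest change among DEGs whose groups did not overlap, with at least 10 counts in every well and a mean of at least 10 CPM in the higher group, a condition met by 709 lower and 9 higher genes. ENSOARG00020021234 had 997, 1016 and 1027 counts in Con wells 1, 2 and 3 and 28, 38 and 46 counts in VP wells 1, 2 and 3. Its level went from 66.0 ± 2.18 to 2.46 ± 0.547 TMM-normalized CPM (SD, n = 3). The wells of each group were close together, and the log2 fold change was -4.74 (SE 0.139; edgeR, adjusted p = 5.95e-14), or 26.6-fold lower in VP. ENSOARG00020019093 had 206, 2161 and 2326 counts in Con and 12, 75 and 14 counts in VP. Its groups did not overlap, but Con well 1 held far fewer counts than the other Con wells and VP well 2 more than the other VP wells. Its log2 fold change was -5.51 (SE 0.73; edgeR, adjusted p = 1.01e-05), a larger decrease than that of ENSOARG00020021234 with a wider error. It ranged from -6.90 without VP well 2 to -5.08 without VP well 3 or Con well 3, and was -3.44 with read GC content as a covariate.

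ENSOARG00020006262 had 6131, 4041 and 3877 counts in Con wells 1, 2 and 3 and 12122, 12006 and 13306 counts in VP wells 1, 2 and 3. All VP wells lay above all Con wells, of which well 1 was the highest. Its level was 304 ± 78.3 CPM in Con and 825 ± 19.9 CPM in VP (SD, n = 3), a log2 fold change of 1.44 (SE 0.116; edgeR, adjusted p = 3.14e-08). With 1 well left out this fold change ranged from 1.33 without Con well 3 to 1.67 without Con well 1, and it was 1.17 with read GC content as a covariate. ENSOARG00020022730 had 161, 94 and 88 counts in Con and 300, 295 and 308 counts in VP. The Con wells again spread more widely than the VP wells, with well 1 the highest. Its log2 fold change was 1.42 (SE 0.19; edgeR, adjusted p = 1.11e-05). With 1 well left out it ranged from 1.28 without Con well 3 to 1.74 without Con well 1, and it was 1.03 with read GC content as a covariate. Against a null of a 2-fold change, tested with glmTreat, ENSOARG00020006262 passed (FDR = 0.00407) and ENSOARG00020022730 did not (FDR = 0.101). Over 18 alternatives the FDR of ENSOARG00020006262 ranged from 1.28e-77 to 0.00407 and that of ENSOARG00020022730 from 6.12e-18 to 0.101. The lowest came from edgeR without a filter for the former and with the replicate number as a block for the latter. Both lay far below the main fit for reasons not tested, so they are not read as stronger evidence.

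**Figure D4:**
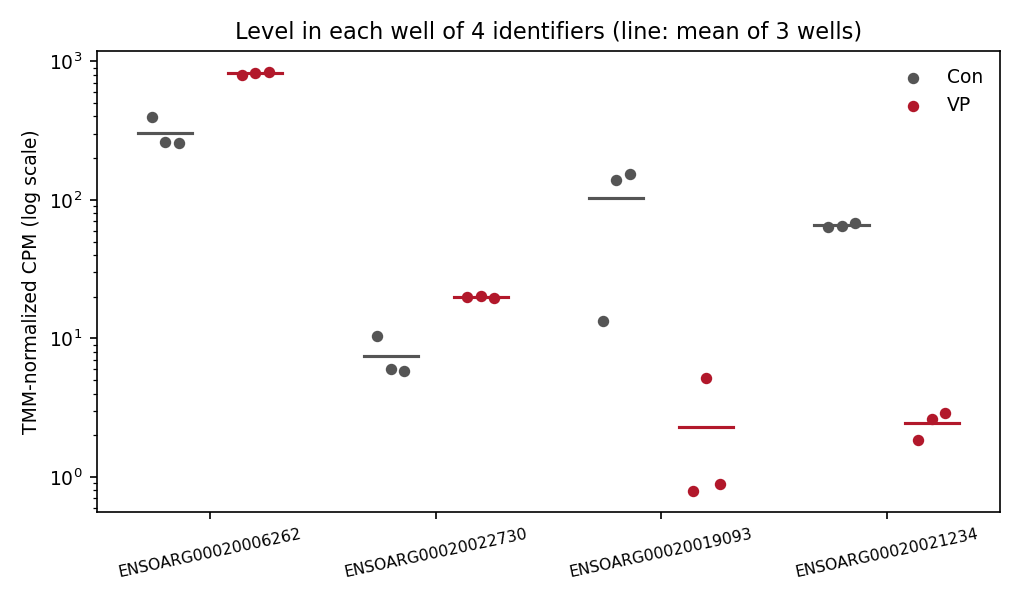
TMM-normalized CPM (y axis, log scale) of 4 identifiers (x axis) in each of 3 Con wells (grey points) and 3 VP wells (red points), with a line at the mean of each group. The first pair of identifiers is higher and the second pair lower in every VP well than in any Con well, and the Con wells of ENSOARG00020019093 spread from 13.3 to 155 CPM.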

How the data were processed

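Total RNA of RE cells was sequenced from 1 library per well. The authors filtered the reads with CASAVA (version 1.8 in the submitters' processing notes), aligned them by HISAT2 to the sheep assembly Oar_rambouillet_v1.0, and deposited 1 column of raw counts for each well, with no normalization or pooling; the counting tool and annotation are not given in the sources used here. Libraries were assigned to groups by name, and 0 columns were left unassigned. The GA-017 libraries were not used.

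Genes were tested with edgeR 4.0.16 (R 4.3.3; glmQLFit and glmQLFTest, TMM, no covariate) on the 6 libraries. DESeq2 1.42.0, which the study used, and limma 3.58.1 (voom, cyclic loess) were alternatives. SE was the size of the log2 fold change over the square root of F. Distances and differences of single wells used log2 CPM (prior count 2), and numbers of genes detected at equal depth were means over 20 draws. A floor of 3 counts was 0.19 to 0.207 CPM and covers counting error only.

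Deviations of same-numbered Con and VP wells from their group means correlated with r = 0.178, 0.109 and 0.395, each over 0.1, so the replicate numbers were taken to pair the wells, although only the library names give them and Con well 1 with VP well 2 (r = 0.149) exceeded the second of these pairs. The main fit did not include these pairs, which entered only as a block and as swaps within pairs among the alternatives. The comparison, the rules for naming genes and the alternatives were chosen with earlier results of these data known. Symbols could not be paired (the RefSeq table at hand is of ARS-UI_Ramb_v3.0 and lists no Ensembl identifiers), so the planned gene lists were not run.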

Additional observations from a re-analysis of the deposited data

How the results depend on the processing

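The decreases were the steadier part of the response. The 1163 genes lower in VP were 475 with glmTreat and 3323 without a fold change threshold, and their number otherwise stayed within 1.5 times. Their identity was less steady with read GC content as a covariate, where 797 genes were lower and included only 682 of the 1163. The 37 higher genes were 2745 without that threshold, 4 with glmTreat, 20 at a filter of 2 CPM, 58 without a filter and 154 with cyclic loess, which also turned the median log2 fold change of the lowest expression class to 0.00922 from -0.32. In that class cyclic loess removes the trend by construction; for the other values the cause was not tested. With the replicate number as a block, pairing the wells, 40 genes were higher and 1183 lower, including 37 and 1159 of the DEGs, and no call of a named identifier changed. Exact tests over wells had p = 0.25 with swaps within pairs, an alternative added after the values were seen. With 1 well left out, from 40 to 64 genes were higher and from 1047 to 1320 lower, and from 87 to 172 genes passed the CPM minimum in VP only (112 with all wells). Genes counted in Con only numbered 8 at a minimum of 3 counts, 2 at 5, 1 at 10 and 0 at 20; with 1 well left out, a looser condition, they numbered from 16 to 23, and those counted in VP only from 3 to 7. Outside the 10 most abundant genes, VP exceeded Con by 1.73 percentage points in the share of ranks 11 to 100, against 2.83 for the top 100 of all counts. Of 72 values for the named identifiers, 71 kept their direction and their side of the threshold, and the exception was ENSOARG00020022730 with glmTreat. These identifiers were chosen from the same wells for large changes without overlap. Keeping the call was thus favoured in advance and says little about other genes. The planned gene lists could not be run without symbols. Levels under 3 counts have no order at this depth.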
